A study of Mus musculus with 5 samples.

Results

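The mouse collagen genes were taken as the probes of a 2-colour Agilent array whose RefSeq identifier maps to a symbol made of Col, a chain type, the letter a and a chain number. Of 41174 non-control probes, 65 probes of 39 genes met this rule. They were sorted into 21 probes of 11 fibrillar collagen genes, 10 probes of 6 basement membrane (type IV) genes and 34 probes of 22 other collagen genes. Each of 5 arrays carried the RNA of 1 liver sample, called livers 1 to 5, from male C57BL/6N mice fed ethanol for 8 weeks and then given 3 ethanol binges of 5 g per kg. All 5 samples form 1 group, labelled with Cy5. The Cy3 channel of every array held the same kind of purchased mouse RNA, sold as an assortment, for which the labels give liver and C57BL/6N. No array had the dyes exchanged, and animals on a control diet were not analysed here, so each ratio sets an ethanol-fed, binged liver against the reference RNA. Nothing in the labels ties the 5 samples to separate animals, so every p-value rests on a spread that may be technical.

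Collagens are extracellular proteins built from triple helices of alpha chains. Fibrillar collagens (types I, II, III, V, XI, XXIV and XXVII) form the banded fibres of connective tissue, and types I and III make up most of the scar in a fibrotic liver. Type IV chains form the sheet-like network of basement membranes, which the sinusoids of a healthy liver hold only thinly. The remaining types form beaded filaments (VI), decorate fibrils (IX, XIV, XVI and XIX), carry a releasable antiangiogenic fragment (XV and XVIII), build short-chain networks (VIII and X) or cross the cell membrane (XIII, XVII, XXIII and XXV). In liver, hepatic stellate cells are the main source of fibrillar collagen after injury, and hepatocytes make much of the type XVIII chain.

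Promoter windows from RefSeq (build GRCm38.p6, the 250 bases before each gene's start) were found for 32 of the 39 genes. The 4 windows below belong to the type VI neighbours Col6a6 and Col6a4, which lie on the same strand of chromosome 9 with Col6a5 between them, and to Col4a6 and Col4a5, which start head to head on chromosome X. They are shown because probes of both pairs stood above the reference. Capitals mark matches to 3 motifs searched on both strands, which do not overlap in these windows. The TATA box was searched as TATAAA. The second motif, the CCAAT box, was searched by the 5 letters of its name. The GC box, which Sp1-type factors can bind, was searched as GGGCGG. The Col6a6 window is chr9:105828086-105828335 (minus strand), that of Col6a4 is chr9:106096692-106096941 (minus strand), that of Col4a6 is chrX:141474077-141474326 (minus strand) and that of Col4a5 is chrX:141475169-141475418 (plus strand).
Col6a6: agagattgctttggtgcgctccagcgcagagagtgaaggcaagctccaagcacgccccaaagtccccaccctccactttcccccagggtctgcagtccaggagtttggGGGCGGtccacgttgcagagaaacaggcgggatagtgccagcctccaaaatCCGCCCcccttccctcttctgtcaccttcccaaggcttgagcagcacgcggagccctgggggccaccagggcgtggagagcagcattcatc
Col6a4: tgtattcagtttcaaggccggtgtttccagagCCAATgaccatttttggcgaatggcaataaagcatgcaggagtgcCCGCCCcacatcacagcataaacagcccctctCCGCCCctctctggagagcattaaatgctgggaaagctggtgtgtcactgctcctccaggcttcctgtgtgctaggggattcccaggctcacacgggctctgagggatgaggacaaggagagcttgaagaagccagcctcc
Col4a6: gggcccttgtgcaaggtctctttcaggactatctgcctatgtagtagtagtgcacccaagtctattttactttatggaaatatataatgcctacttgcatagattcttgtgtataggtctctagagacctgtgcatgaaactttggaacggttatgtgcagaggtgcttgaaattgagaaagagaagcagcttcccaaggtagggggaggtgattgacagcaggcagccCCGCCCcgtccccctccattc
Col4a5: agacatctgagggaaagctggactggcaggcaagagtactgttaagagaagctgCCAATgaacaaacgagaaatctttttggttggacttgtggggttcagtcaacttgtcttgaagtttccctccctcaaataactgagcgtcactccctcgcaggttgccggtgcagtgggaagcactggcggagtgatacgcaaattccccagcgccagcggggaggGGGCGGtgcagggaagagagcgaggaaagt
All 4 windows hold a GC box, 2 of them hold it at 2 places, and Col6a4 and Col4a5 also hold a CCAAT box. None of the 4 holds the TATA letters. Over the 35 windows of collagen genes, 21 held a GC box, 13 a CCAAT box and 5 a TATA box. Of all 32851 mouse windows of this length, 32.7% held a GC box, 33.8% a CCAAT box and 12.4% a TATA box. A match describes the letters of the window and is no evidence of a bound factor.

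Detection came first. A probe entered the test if 1 of its channels was well above background on 3 or more arrays. Of the 65 collagen probes, 56 probes of 36 genes did so, and 52 cleared the background on each of the 5 arrays in both colours. The 9 others were both probes of Col17a1 (a hemidesmosome collagen of skin), 2 of the 3 probes of Col19a1, 1 of the 2 probes each of Col24a1, Col4a3 and Col8a1, and the single probes of Col26a1 and Col28a1. Of these, 8 were not well above background on any array in either channel, and the Col8a1 probe reached it on 2 arrays in the liver channel only. Most collagen probes thus gave signal above background in both RNAs, including those for cartilage collagens such as Col2a1 and Col9a2. Whether these probes also bind other transcripts was not examined. For Col6a3, Col6a5, Col12a1, Col20a1 and Col22a1 no probe matched by this route, and they were not analysed here.

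Across the arrays, 77.2% to 81.1% of spots were well above background in Cy5 and 69.5% to 78.1% in Cy3, and no spot was saturated. Across all tested probes, which are not independent replicates, r between livers was 0.424 to 0.78. The number of arrays limits the precision.

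Collagen mRNA as a family stood where the whole array stood. Values below are log2 ratios of liver over reference, 0 meaning equal signal, tested against 0 with limma over all 31887 tested probes with Benjamini-Hochberg adjustment. Of the 56 collagen probes, 29 had a mean above 0 and 27 below, against 49.5% above 0 over all tested probes, and the median was 0.01, against -0.003 for all. With an adjusted p below 0.05, 9 collagen probes were above and 8 below the reference, where the background over all probes was 16.2% above and 11.5% below. With a ratio of at least 2-fold in addition, 1 collagen probe was called higher (background 1.2%) and 1 was called lower (background 0.32%). Those were Col6a6 and 1 of 3 probes for Col1a1. With each gene taken by its brightest probe, the same genes were called, against backgrounds of 0.865% of genes higher and 0.416% lower. The livers did not overlap 0 for 12 probes above it and 9 below it, next to 20.6% and 17.9% of all probes. With 1 probe on either side, the calls give no share that can be read against the background.

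**Figure D1:**
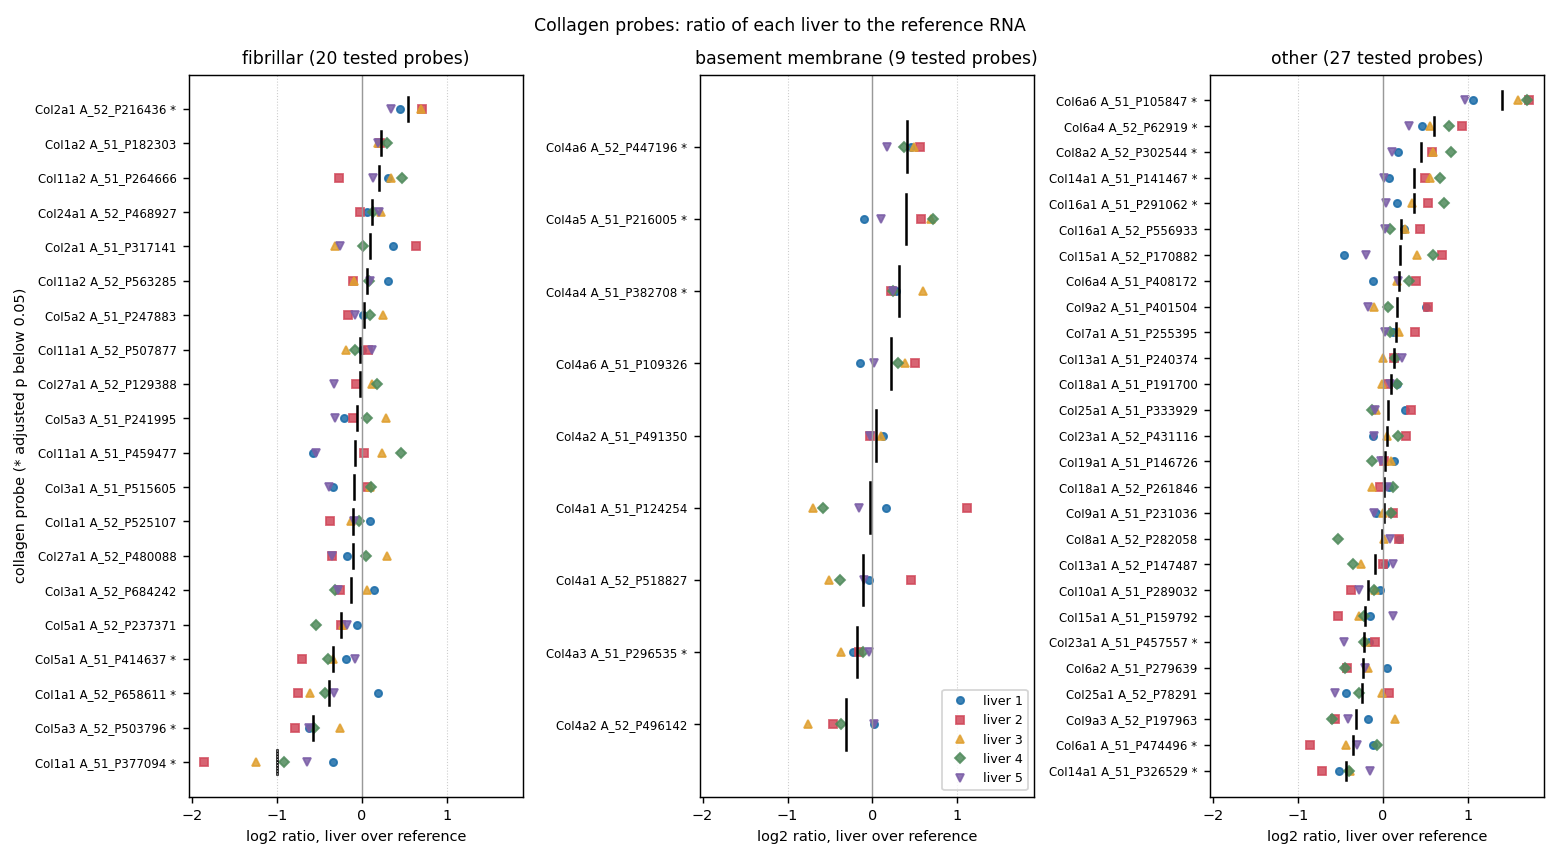
Log2 ratio of liver over reference (x axis) for each of the 56 tested collagen probes (y axis), in panels for fibrillar, basement membrane and other collagens; symbols are the 5 livers, black bars their mean and asterisks an adjusted p below 0.05 in limma. Col6a6 stands apart on the high side at a mean of 1.41 and 1 Col1a1 probe on the low side at -1.002, while most means lie close to 0.

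Type VI collagens link cells to the surrounding fibres. The more recently described alpha chains Col6a6 and Col6a4 had means above the reference, and the classic Col6a1 and Col6a2 had means below it. Col6a3 and Col6a5 had no matched probe. Col6a6, the alpha 6 chain, had log2 ratios of 1.06, 1.72, 1.59, 1.70 and 0.97 in livers 1 to 5. All 5 lay above 0, with livers 2, 3 and 4 higher than livers 1 and 5. The mean was 1.41 ± 0.36 (SD, n = 5; 2.66-fold; limma adjusted p = 0.00031), and it kept its call without any 1 liver (1.33 to 1.52). Its background-subtracted Cy5 signal lay between 366 and 1021 in the livers, and the Cy3 signal between 151 and 259, so the channels did not overlap.

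The neighbouring Col6a4, the alpha 4 chain, showed the same order of livers at a smaller size. Its brighter probe (A_52_P62919) read 0.46, 0.94, 0.56, 0.78 and 0.30, a mean of 0.61 ± 0.25 (SD, n = 5; 1.52-fold; limma adjusted p = 0.0036). Every liver was above 0, with livers 2 and 4 highest. Its other probe (A_51_P408172) had a mean of 0.19 ± 0.19 and did not pass the test. In the same livers the median of all 382 probes called higher on the array was 0.91, 1.60, 1.38, 1.67 and 0.93, so the order of livers seen in Col6a6 was close to that of called-higher probes at large. What that shared order owes to the arrays was not tested.

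Col6a1 and Col6a2, the alpha 1 and alpha 2 chains of the classic type VI trimer, lie next to each other in the genome and were dim on the array. Col6a1 read -0.11, -0.86, -0.43, -0.06 and -0.31, with every liver below 0 and liver 2 lowest. Its mean was -0.35 ± 0.32 (SD, n = 5; limma adjusted p = 0.0395), and the test was lost without liver 2, 3 or 5 (adjusted p up to 0.09997). In the deposited ratios the Col6a1 mean was -0.89. Col6a2 read 0.05, -0.42, -0.17, -0.44 and -0.21, a mean of -0.24 ± 0.20 that missed the threshold (adjusted p = 0.0549), but passed it with Agilent's processed signals (-0.53, adjusted p = 0.0326). Livers 2 and 4 were its lowest, and liver 1 was just above 0.

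**Figure D2:**
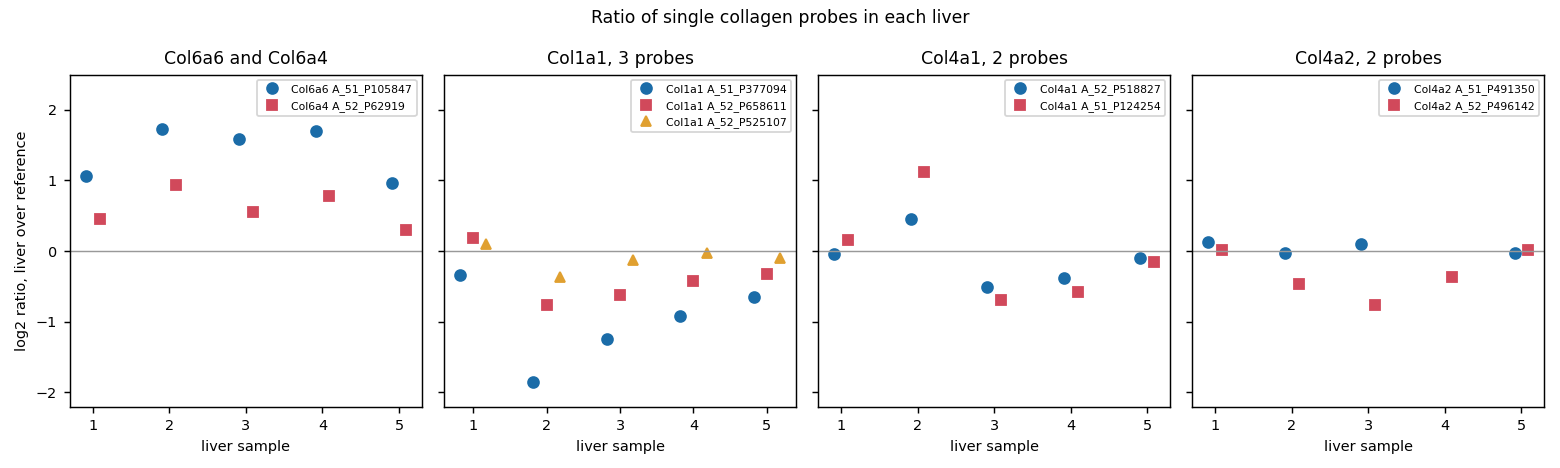
Log2 ratio of liver over reference (y axis) in each liver sample (x axis) for probes of Col6a6 and Col6a4, the 3 Col1a1 probes, the 2 Col4a1 probes and the 2 Col4a2 probes. The Col6a6 points lie between 0.97 and 1.72; the 3 Col1a1 probes are lowest in liver 2 but sit at different levels; both Col4a1 probes are highest in liver 2 and lowest in liver 3.

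Fibrillar collagens gave 20 tested probes with a median of -0.07. Of these, 1 probe was above and 4 were below the reference with an adjusted p below 0.05 (16.2% and 11.5% over all probes). No probe of the main scar collagens, types I and III, passed the test on the high side in this fit, though the Col1a2 probe did so under other processing. In bulk RNA of this kind, fewer cells of a type and less RNA per cell cannot be told apart.

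Col1a1 encodes the alpha 1 chain of type I collagen. Its brightest probe (A_51_P377094) read -0.34, -1.86, -1.25, -0.92 and -0.65 in livers 1 to 5. The signal of this probe was 76.1 to 187.7 in Cy5 and 195.9 to 475.3 in Cy3. All 5 livers lay below the reference, with liver 2 far lowest and liver 1 nearest to 0. The mean was -1.002 ± 0.58 (SD, n = 5; 2.003-fold below the reference; limma adjusted p = 0.00796). The mean sits on the 2-fold limit: it was -0.79 without liver 2 and -0.94 without liver 3 or with the arrays scaled to each other, so the 2-fold call was lost there, while the adjusted p stayed below 0.05 in each of these.

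The other Col1a1 probes lay closer to 0. A_52_P658611 read 0.19, -0.76, -0.62, -0.43 and -0.33, a mean of -0.39 ± 0.36 (adjusted p = 0.0433, up to 0.129 when any 1 of livers 2 to 5 was left out), with liver 1 above 0. A_52_P525107, spotted 10 times per array, read 0.10, -0.37, -0.12, -0.03 and -0.09, a mean of -0.10 ± 0.17 that did not pass the test (adjusted p = 0.313). All 3 probes thus had liver 2 lowest and liver 1 highest.

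Col1a2, the alpha 2 chain that joins 2 alpha 1 chains in the type I trimer, read 0.22, 0.19, 0.30 and 0.20 in livers 2 to 5. The spot of liver 1 was dropped as an outlier. All 4 values lay above 0 in a narrow range, yet the mean of 0.23 ± 0.05 (SD, n = 4) missed the threshold (limma adjusted p = 0.0615). It passed with Agilent's processed signals (0.25, adjusted p = 0.0437), in the deposited ratios (0.27, adjusted p = 0.0158) and with outlier spots kept (0.24, adjusted p = 0.03), and fell to 0.02 with median centring. The Col1a2 probe was bright in both channels, at 3078 to 4600 in the livers and 2442 to 3795 in the reference. Its values and those of the brightest Col1a1 probe did not overlap, though that Col1a1 probe was far dimmer in both channels.

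Type III and type V collagens co-assemble with type I fibrils. Col3a1 read -0.34, 0.07, 0.09, 0.10 and -0.39 on A_51_P515605 (mean -0.09 ± 0.25, adjusted p = 0.502). Its other probe, A_52_P684242, had a mean of -0.13 ± 0.21 over values from -0.32 to 0.14 (adjusted p = 0.274). On both Col3a1 probes the livers lay on either side of the reference. Col5a2, a neighbour of Col3a1, read 0.02, -0.17, 0.25, 0.09 and -0.08 (mean 0.02 ± 0.16), and also straddled it.

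The other type V chains stood lower. Col5a1 read -0.18, -0.70, -0.34, -0.40 and -0.08 on A_51_P414637, all below 0, for a mean of -0.34 ± 0.24 (adjusted p = 0.0235, and up to 0.0737 without liver 2, 3 or 4). Its second probe, A_52_P237371, read -0.05, -0.24, -0.22, -0.54 and -0.17 for a mean of -0.24 ± 0.18 (adjusted p = 0.0541, and 0.0463 with the arrays scaled to each other). Every value of both Col5a1 probes was thus below the reference, though 1 of them missed the threshold. Col5a3 read -0.62, -0.79, -0.26, -0.56 and -0.63 on A_52_P503796, a mean of -0.57 ± 0.19 (1.49-fold below; adjusted p = 0.00278) that kept the test without any 1 liver.

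The one fibrillar probe above the reference belonged to Col2a1, the type II collagen of cartilage. A_52_P216436 read 0.45, 0.71, 0.69 and 0.34 in livers 1, 2, 3 and 5, with liver 4 dropped as an outlier spot. All 4 lay above 0, and the mean was 0.55 ± 0.18 (SD, n = 4; 1.46-fold; limma adjusted p = 0.00562). With median centring in place of loess it was 0.40 and lost the test (adjusted p = 0.0768). The second Col2a1 probe, described below, did not pass the test. The remaining fibrillar probes, for Col11a1, Col11a2, Col24a1 and Col27a1, had means between -0.10 and 0.20, and none passed it.

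Type IV collagens gave 9 tested probes, of which 3 were above and 1 was below the reference at an adjusted p below 0.05 (16.2% and 11.5% over all probes), with a median of 0.05. Chains of 3 loci can be set side by side, each locus holding 2 genes that start from a shared region. Col4a1 and Col4a2, whose chains form the common network of most basement membranes, had no probe past the test in this fit. The minor chains Col4a4, Col4a5 and Col4a6, best known from kidney and smooth muscle basement membranes, each had a probe above the reference, in a fit with loess. With median centring Col4a4 (adjusted p = 0.154) and Col4a6 (0.27, adjusted p = 0.188) lost the test, and with the arrays scaled to each other Col4a5 was at the threshold (adjusted p = 0.05003).

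A probe of Col4a1 had the largest SD between livers of the type IV probes, though with loess it did not pass the spread test described below. A_52_P518827 read -0.04, 0.46, -0.51, -0.38 and -0.10 in livers 1 to 5 (mean -0.11 ± 0.37), and A_51_P124254 read 0.16, 1.12, -0.70, -0.58 and -0.15 (mean -0.03 ± 0.73). Both probes placed the livers in the same order, with liver 2 highest and livers 4 and 3 lowest. On A_51_P124254, the Cy5 signal of liver 2 was 340.1, against 65.9 to 108 in the other livers. Neither mean passed the test (adjusted p = 0.529 and 0.941).

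Col4a2, the neighbour transcribed from the shared region, did not show that pattern. A_51_P491350 read 0.13, -0.02, 0.11 and -0.03 in livers 1, 2, 3 and 5 (mean 0.05 ± 0.08, n = 4), and the spot of liver 4 was dropped as an outlier. A_52_P496142 read 0.02, -0.46, -0.76, -0.37 and 0.02 (mean -0.31 ± 0.33, adjusted p = 0.0812). It passed the test with Agilent's processed signals (-0.50, adjusted p = 0.0252) and with median centring (-0.33, adjusted p = 0.028). Liver 2, the highest for Col4a1, was thus near or below the reference for Col4a2 on both probes.

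Col4a4 read 0.28, 0.22, 0.60, 0.24 and 0.24, with liver 3 apart from 4 close values, and a mean of 0.32 ± 0.16 (adjusted p = 0.0232, and up to 0.0776 without liver 3 or 4). Its neighbour Col4a3 was dim, well above background on 3 arrays in Cy5 and 2 in Cy3. The tested Col4a3 probe read -0.22, -0.16, -0.37, -0.11 and -0.04, for a mean of -0.18 ± 0.12 (adjusted p = 0.0465). Without liver 1 or 4 it lost the test (adjusted p up to 0.102). With any other liver left out, the probe did not reach the detection filter and was not tested. With so little signal in both channels the offset added before the logarithm holds such a ratio near 0.

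At the X-linked locus both genes lay above the reference on their brightest probes. Col4a5 read -0.10, 0.58, 0.69, 0.72 and 0.10, a mean of 0.40 ± 0.38 (adjusted p = 0.0488, and up to 0.158 without liver 2, 3 or 4), with liver 1 below 0. Col4a6 read 0.46, 0.56, 0.50, 0.38 and 0.18 on A_52_P447196, a mean of 0.41 ± 0.15 (1.33-fold; adjusted p = 0.00645), and every liver was above 0. The second Col4a6 probe had a mean of 0.21 ± 0.27 and missed the threshold (adjusted p = 0.12).

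The 27 tested probes of other collagens had a median of 0.05. At an adjusted p below 0.05, 5 were above and 3 below the reference (16.2% and 11.5% over all probes). Besides Col6a6 and Col6a4, those above were Col8a2, Col14a1 and Col16a1. Besides Col6a1, those below were Col14a1 on its other probe and Col23a1, a transmembrane collagen. Among fibril-associated collagens, 2 of 8 tested probes were above and 1 was below.

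Col14a1, which binds the surface of collagen fibrils, gave opposite answers. A_51_P141467 read 0.07, 0.50, 0.56, 0.68 and 0.01, a mean of 0.36 ± 0.30 (adjusted p = 0.0407, and up to 0.142 without liver 2, 3 or 4). A_51_P326529 read -0.52, -0.71, -0.39, -0.40 and -0.15, a mean of -0.43 ± 0.21 (adjusted p = 0.00719). The values of the probes did not overlap, and no direction can be given for the gene. With median centring the first probe lost the test (adjusted p = 0.0747).

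Col8a2, a short-chain network collagen, read 0.18, 0.58, 0.59, 0.80 and 0.10 (mean 0.45 ± 0.30, adjusted p = 0.0153). Col16a1 read 0.17, 0.54, 0.35, 0.72 and 0.03 on A_51_P291062 (mean 0.36 ± 0.28, adjusted p = 0.0323). Without liver 2, 3 or 4 the adjusted p reached 0.0581 for Col8a2 and 0.112 for Col16a1. In both genes all livers were above 0 and livers 1 and 5 were the nearest to it. Col23a1 read -0.16, -0.10, -0.20, -0.22 and -0.45 on its dimmer probe (mean -0.23 ± 0.13, adjusted p = 0.0247, and up to 0.0715 without liver 3, 4 or 5).

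The multiplexins, types XV and XVIII, sit at basement membrane borders. Col18a1 was close to the reference in every liver. Its probes read 0.16, 0.07, -0.01, 0.17 and 0.08 (A_51_P191700, mean 0.09 ± 0.07) and 0.07, -0.03, -0.13, 0.12 and 0.05 (A_52_P261846, mean 0.02 ± 0.10), and neither passed the test (adjusted p = 0.307 and 0.871). The first of these had a Cy5 signal of 15091 to 20880 against 13425 to 22524 in Cy3, so the channels overlapped over the whole range.

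Col15a1 values spread more widely between livers, though neither probe passed the spread test described below. A_52_P170882 read -0.46, 0.70, 0.40, 0.60 and -0.19, a mean of 0.21 ± 0.51 (adjusted p = 0.388), with livers 1 and 5 below the reference and livers 2, 3 and 4 above it. Its other probe, A_51_P159792, read -0.16, -0.53, -0.28, -0.22 and 0.12 and put liver 2 lowest. No direction can be given for this gene either.

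The collagen classes were then compared liver by liver, as a description without a test. The median of fibrillar probes was 0.01, -0.14, 0.08, 0.05 and -0.22 in livers 1 to 5. That of basement membrane probes was 0.02, 0.46, 0.11, 0.06 and 0.02, and that of other collagens 0.07, 0.14, 0.01, 0.09 and 0.01. Over all livers the class medians were -0.07, 0.05 and 0.05. The fibrillar median was lowest of the classes in livers 1, 2, 4 and 5 but not in liver 3. Liver 2 set basement membrane and fibrillar probes furthest apart, with 6 of 9 basement membrane probes and 6 of 20 fibrillar probes above 0. Median SD between livers was 0.27 for basement membrane, 0.22 for fibrillar and 0.21 for other collagen probes, and 0.17 for all tested probes.

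**Figure D3:**
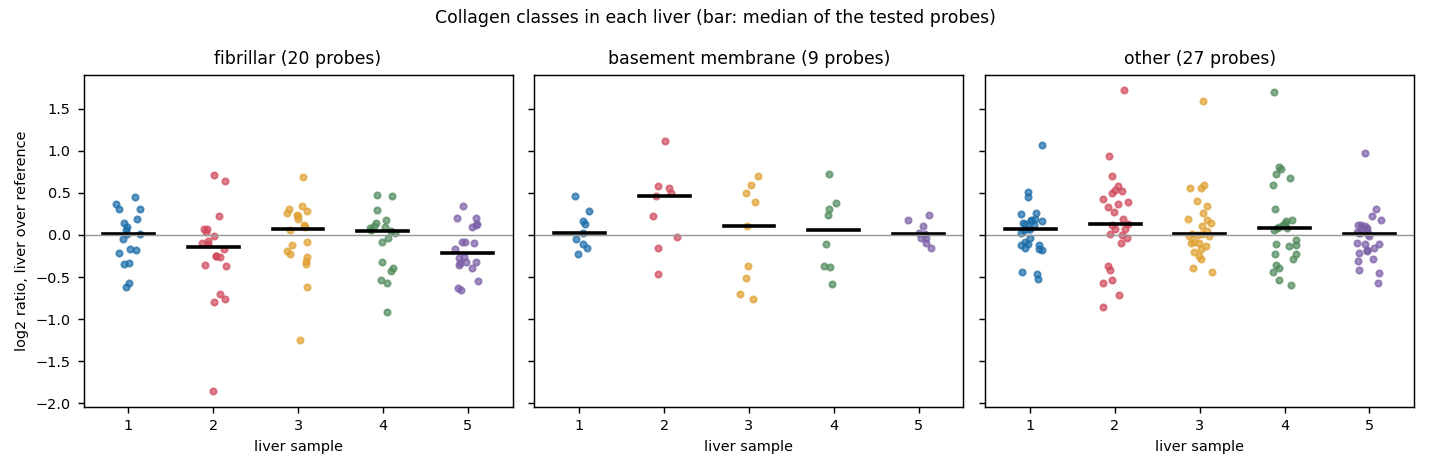
Log2 ratio of liver over reference (y axis) of every tested probe in each liver sample (x axis), in panels for the 3 collagen classes; points are probes and bars are the class median in that liver. All medians lie between -0.22 and 0.14 except that of basement membrane probes in liver 2, at 0.46.

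Probes of one gene were compared directly, because 22 of the collagen genes have 2 probes and 2 genes (Col1a1 and Col19a1) have 3. In 20 pairs from 19 genes, the log2 ratio of the brightest tested probe minus that of the other was tested against 0 with limma, with p-values adjusted over all 5736 such pairs on the array. Of the collagen pairs, 6 differed (30%, against a background of 26.8%), none with a difference of 2-fold (background 1.87%), and 6 had means of opposite sign (background 40.6%). The median absolute difference was 0.25 over collagen pairs and 0.17 over all pairs.

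The Col1a1 pair of A_51_P377094 and A_52_P525107 lay furthest apart. The differences were -0.44, -1.49, -1.12, -0.88 and -0.56, all below 0, with a mean of -0.90 ± 0.43 (SD, n = 5; adjusted p = 0.00487). Against A_52_P658611 the difference was -0.61 ± 0.29 (adjusted p = 0.00749). Both dimmer Col1a1 probes lay at signals where the offset pulls ratios toward 0, and its part in these gaps was not tested. With Agilent's processed signals the first Col1a1 pair differed by -1.13 (limma adjusted p = 0.005). The Col14a1 probes differed by 0.80 ± 0.42 (adjusted p = 0.00755), with every liver above 0 and liver 5 lowest at 0.16. The Col5a3 probes differed by -0.51 ± 0.16 (adjusted p = 0.00461), the Col6a4 probes by 0.42 ± 0.18 (adjusted p = 0.012) and the Col23a1 probes by 0.28 ± 0.14 (adjusted p = 0.0283, and up to 0.0935 without any 1 of livers 2 to 5).

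With Agilent's processed signals the Col6a4 pair shrank to 0.22 and lost the test (adjusted p = 0.231). The second Col1a1 pair lost it at nearly the same difference (-0.57, adjusted p = 0.0627) and the Col23a1 pair at a larger one (0.63, adjusted p = 0.106). The Col13a1 pair gained it there (-0.38, adjusted p = 0.0262). The smallest mean differences were those of Col3a1 (0.04), Col11a1 (-0.06) and Col27a1 (0.07). Those means hide wide spreads: liver 1 had the lowest Col3a1 difference at -0.48 and liver 4 the highest at 0.42, and for Col11a1 the ends were -0.66 and 0.55. For Col27a1 it ran from -0.18 to 0.28 in the 4 livers with both values. The tightest pair was Col18a1, at 0.08 ± 0.04.

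**Figure D4:**
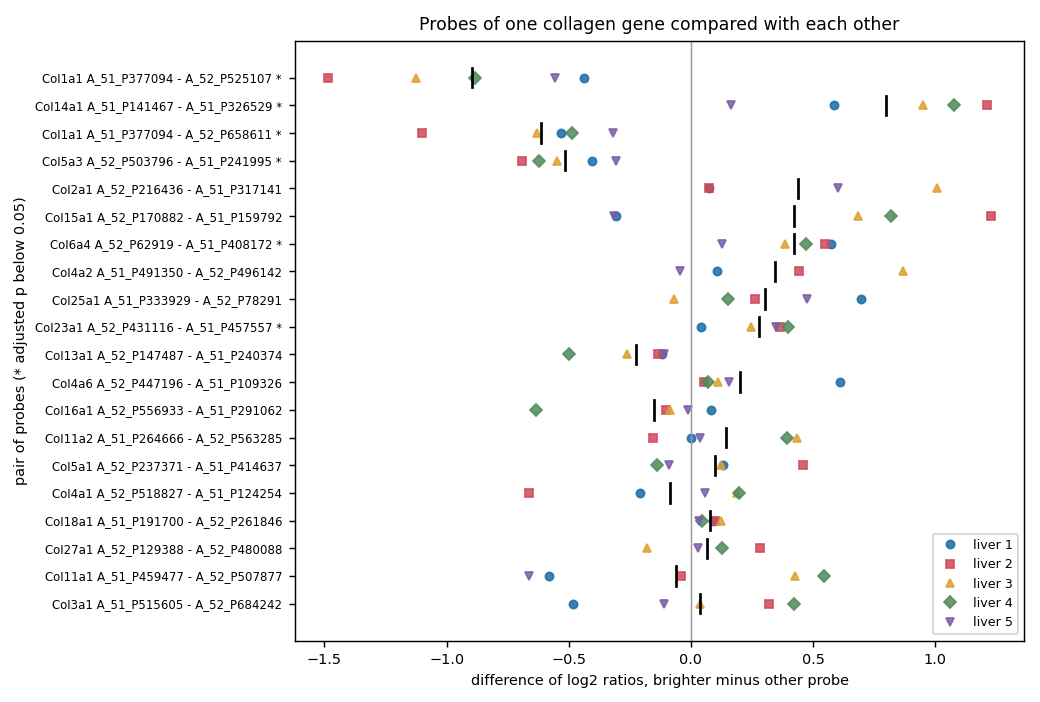
Difference of log2 ratios, brighter minus other probe of one gene (x axis), for 20 pairs of collagen probes (y axis); symbols are livers, black bars the mean, and asterisks an adjusted p below 0.05 in limma. The Col1a1, Col14a1 and Col5a3 pairs lie wholly on one side of 0, whereas the Col3a1 and Col11a1 pairs have means near 0 and livers on either side.

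A pair of collagen probes was spotted 10 times on each array, which shows the error within an array. For Col1a1 A_52_P525107, spots of one array had an SD between 0.06 and 0.15, next to 0.17 between livers. For Col2a1 A_51_P317141 the spot SD was 0.02 to 0.15, while the livers read 0.37, 0.64, -0.31, 0.02 and -0.26, an SD of 0.41. After outlier spots were dropped, 9, 5, 10, 8 and 10 Col2a1 spots were left in livers 1 to 5. Among these, the lowest in liver 2 was 0.62 and the highest in liver 3 was -0.09. The Col2a1 values thus differed more between arrays than between kept spots, which leave out error between arrays. The mean of 0.09 did not pass the test (adjusted p = 0.652).

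Spread between livers was also tested for each probe, as an F test of its variance against the intensity-dependent prior variance of limma, over the 24009 probes that every array measured above background in both colours. No probe passed at an adjusted p below 0.05 (background 0%), collagens included. Without adjustment, 4 of 48 collagen probes (8.33%) and 1245 of all probes (5.19%) had a p below 0.05. The 4 were Col4a1 A_51_P124254 (SD 0.73), Col1a1 A_51_P377094 (0.58) and A_52_P658611 (0.36), and Col15a1 A_52_P170882 (0.51). With median centring in place of loess the Col4a1 probe was called variable (adjusted p = 0.0251). Median SD was 0.24 over these collagen probes and 0.19 over all.

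Certain livers recurred at the extremes. Of the 8 collagen probes below the reference at an adjusted p below 0.05, liver 2 was lowest for 6, or 75%, and of all such probes on the array it was lowest for 33.6%. Of the 8 above it that had 5 values, liver 5 was lowest for 6, or 75%, next to 36% of all such probes. Over all such probes liver 1 was lowest slightly more often, at 38.6%, against 1 of these 8 collagen probes.

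Genes that process and bind collagen were described from lists of known members, chosen with earlier results of these data known. The list counts below stand beside 16.2% of all tested probes above the reference and 11.5% below it. For folding and modification in the endoplasmic reticulum, 3 of 22 tested probes were above and 2 below the reference (median 0.01). P4ha1, a catalytic subunit of prolyl 4-hydroxylase, read -0.25, -1.30, -0.41, -0.48 and -0.58 (mean -0.60 ± 0.41, adjusted p = 0.0131), all below 0 with liver 2 lowest. Its other probe had a mean of -0.13 with liver 5 lowest and did not pass the test (adjusted p = 0.0895). Both probes of Ppib, cyclophilin B, stood above the reference (0.47 and 0.45), and the first lost the test with median centring (adjusted p = 0.0989). Its partner in prolyl 3-hydroxylation, Crtap, was at 0.42 ± 0.09 (adjusted p = 0.00474), and P3h2, a prolyl 3-hydroxylase, at -0.27. Serpinh1, the collagen chaperone HSP47, had a mean of -0.13 and did not pass the test (adjusted p = 0.238).

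Of 8 probes for propeptide removal, 2 were above and 2 below (median 0.02). Adamts3, a procollagen N-proteinase, was highest at 0.61 ± 0.31 (adjusted p = 0.00596) and Bmp1, the C-proteinase, was at 0.34. Pcolce2, an enhancer of that proteinase, was lowest at -0.34, and Adamts14, another N-proteinase, was at -0.32 and, on its other probe, at 0.02. Among 4 probes for crosslinking lysyl oxidases, Loxl3 was above (0.75 ± 0.40, adjusted p = 0.00521) and Loxl1 below (-0.33 ± 0.20, adjusted p = 0.0144), and the Lox probe did not reach the detection filter. Without liver 4, Pcolce2 (adjusted p = 0.0528) and Loxl1 (0.0553) lost the test.

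Of 10 probes for fibril-binding proteoglycans and glycoproteins, 5 were below and 0 above the reference by limma (11.5% and 16.2% over all probes). The median was -0.18, or 0.003 with outlier spots kept. Tenascin X (Tnxb) was lowest at -0.51 (adjusted p = 0.0171, and 0.0574 without liver 4) and its other probe was at -0.34. Sparc, which binds collagen and aids its deposition, was at -0.46 and -0.24, and Ogn, a small leucine-rich proteoglycan, at -0.33 ± 0.08. The Ogn probe was above background on 4 arrays in the reference channel and on 0 in the liver channel, so it entered the test through the channel where it was high. Prelp was highest at 0.20 and did not pass the test (adjusted p = 0.133). Spots of fibronectin (Fn1) were dropped as outliers on every array, and Bgn kept 1 value, so neither gene was tested.

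Enzymes that degrade collagen, with their inhibitors, had 8 of 15 probes above and 1 below (16.2% and 11.5% over all probes), and a median of 0.18 (0.37 with Agilent's processed signals). Mmp14, a membrane-bound collagenase, read 0.66, 0.57, 0.63, 0.53 and 0.55 (mean 0.59 ± 0.05, adjusted p = 0.000902), a narrow range above 0, and 0.35 on its other probe. Cathepsin K (Ctsk) was at 0.55, gelatinase B (Mmp9) at 0.50 and 0.45, and the inhibitor Timp2 at 0.39 (n = 3). Another inhibitor, Timp1, was at 0.36 on one probe and at -0.19 on the other, which did not pass the test (adjusted p = 0.118). Gelatinase A (Mmp2) was at 0.18 on a probe above background on 4 arrays in the liver channel and on 0 in the reference, so it entered the test through the channel where it was high. Fap, a fibroblast serine protease, was below at -0.23 (adjusted p up to 0.097 without any 1 of livers 2 to 5). Mmp13 and Mmp8, the soluble interstitial collagenases, were at -0.07 and -0.04 and did not pass the test.

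Collagen receptors had 3 of 11 probes above and 2 below (median -0.08). Lair1, an inhibitory receptor of immune cells that binds collagen, was called higher, at 0.24, 1.41, 1.22, 1.60 and 0.67 (mean 1.03 ± 0.56, adjusted p = 0.00643). All 5 livers were above 0, and liver 1 was far the lowest. Its mean fell under the 2-fold limit without liver 2, 3 or 4 (0.89 at the lowest) and with the arrays scaled to each other (0.97). The other tested Lair1 probe had a mean of -0.08 (adjusted p = 0.482) with 4 of 5 livers below 0, so the probes disagree. The integrin subunits Itgb1 (0.49) and Itga2 (0.40) each had a probe above. Their other probes had means of opposite sign that did not pass the test (Itgb1 at -0.23, adjusted p = 0.106, and Itga2 at -0.22, adjusted p = 0.0955). Ddr2 (-0.54 ± 0.12, adjusted p = 0.0016), a receptor kinase for fibrillar collagen, and Mrc2 (-0.17), which takes up collagen fragments, were below.

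Partners of type IV collagen in the basement membrane had a median of -0.14. By limma, 0 of 8 probes were above and 3 below (16.2% and 11.5% over all probes). The 3 were the laminin chains Lamb2 (-0.32, adjusted p = 0.0529 without liver 3), Lama4 (-0.31) and Lamc1 (-0.25). Nid1, nidogen, read 1.05, 0.47, -0.89, -0.03 and 0.48, a mean of 0.22 ± 0.73 that did not pass the test. For TGF-beta signalling, which drives collagen transcription, 1 of 18 probes was above and 2 were below (median -0.14). Skil, a feedback inhibitor, was highest at 0.54 on one probe and at -0.15 on the other (adjusted p = 0.247). Ccn2, a secreted target of the pathway, was lowest at -0.46 ± 0.23 (adjusted p = 0.00929), and Smad7 was at -0.27. Tgfb1 itself was at -0.21 and did not pass the test (adjusted p = 0.0869).

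Marker genes of the cells that make collagen, and of others in the sample, were set beside these ratios. Their counts stand beside 16.2% of all tested probes above the reference and 11.5% below it. Hepatic stellate cell markers had 1 of 16 probes above and 1 below, with a median of -0.01. Hand2 was at 0.25 (n = 4) on one probe and at -0.16 on the other, Reln at -0.38, and Des, the highest, at 0.25 without passing the test. Myofibroblast and smooth muscle markers had 1 of 9 above (Myh11, 0.47) and 1 below (Postn, -0.21), with a median of -0.02. The 3 probes of Acta2, smooth muscle actin of activated stellate cells, had means between -0.06 and 0.04. One of them had 3 values from -0.63 to 0.34, and another was above background on 0 arrays in the reference channel. When 1 liver was left out, the adjusted p reached 0.127 for Reln (livers 1, 2 and 4), 0.0724 for Myh11 (livers 1, 2 and 4) and 0.0713 for Postn (any liver).

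Endothelial markers lay below the reference, with 7 of 9 probes past the test (11.5% over all probes) and all 9 means under 0. Their median was -0.38, from -0.55 in liver 1 to -0.23 in liver 5, and -0.69 with Agilent's processed signals. Ptprb was lowest at -0.62 ± 0.25, the sinusoidal genes Oit3 and Stab2 were at -0.53 and -0.43, and Cdh5, vascular cadherin, was at -0.54 and -0.22. Kupffer cell and macrophage markers had 3 of 5 probes below (Vsig4 at -0.68, Clec4f at -0.52 and Adgre1 at -0.34), and Marco was at 0.30 without passing the test. Bile duct markers had 2 of 8 below (Spp1 at -0.55 and Krt19 at -0.37). Without any 1 of livers 2 to 5 the adjusted p of Spp1 reached 0.0697, and without liver 2, 3 or 4 that of the Cdh5 probe at -0.22 reached 0.0998. The highest bile duct value was a Sox9 probe at 0.55 ± 0.78 (n = 4), a gene that the cartilage list also holds. Vessels and bile ducts rest on basement membranes, and the part of these cells in the collagen ratios was not tested.

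Hepatocyte markers had 3 of 5 probes above and 0 below by limma (16.2% and 11.5% over all probes). Their median was 0.94, from 0.25 in liver 3 to 1.31 in liver 5. Albumin (Alb) at 1.15 ± 0.42 and fibrinogen beta chain (Fgb) at 1.29 ± 0.96 were called higher, Apoa1 was at 0.94 (called without liver 3, at 1.05), and Cyp2e1 was lowest at 0.12 without passing the test. With Agilent's processed signals Alb was at 0.75 and Fgb at 0.90 (adjusted p = 0.0511), and neither was called. With median centring Fgb lost the test (adjusted p = 0.0756). Without liver 5 Alb fell under the 2-fold limit (0.97), and without liver 1 or 5 Fgb lost the test (adjusted p up to 0.157). All 5 hepatocyte probes cleared the background in both colours on every array, so the markers that define the labelled tissue were present. Cartilage and bone markers had 1 of 9 above (Sp7, 0.46) and 1 below (Bglap, osteocalcin, -0.55), with a median of 0.16. Acan and Comp, the cartilage matrix genes that usually accompany type II collagen, were at -0.02 and -0.15 and did not pass the test. Skin epithelium markers had 1 of 6 above (Lor, 0.21) and 1 below (Krt14, -0.59), with a median of 0.01, and Lor lost the test without any 1 liver (adjusted p up to 0.124). Of 4 peritoneal mesothelium probes, Msln alone was tested, at -0.54 ± 0.23 (adjusted p = 0.00315).

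**Figure D5:**
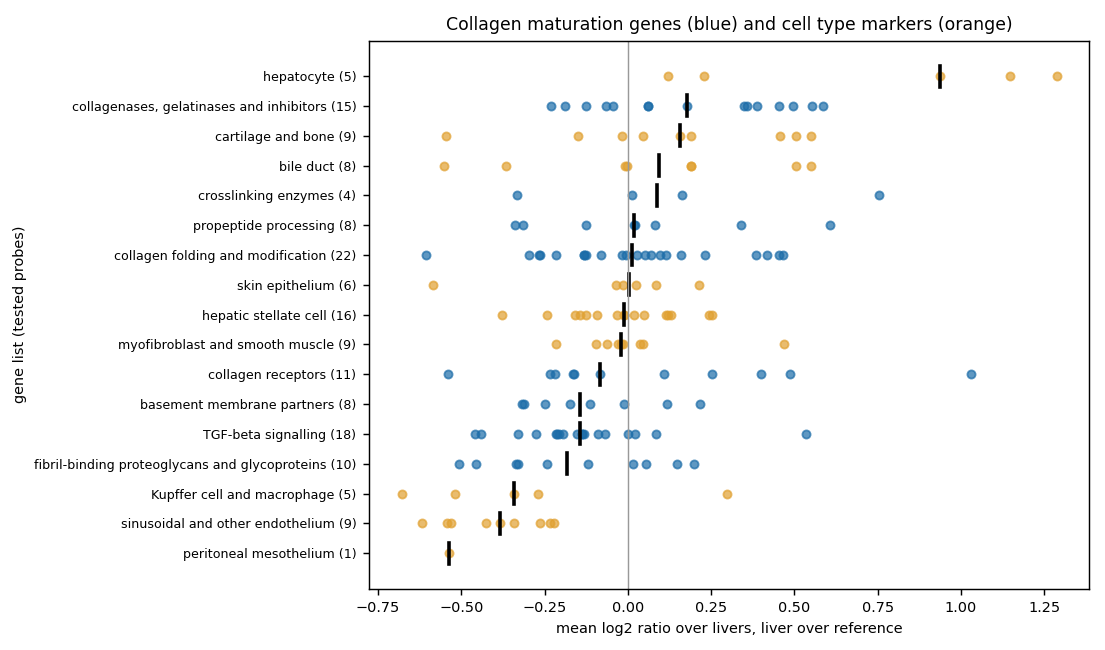
Mean log2 ratio of liver over reference (x axis) of each tested probe, by gene list (y axis, with the number of tested probes); blue lists are collagen maturation and matrix genes, orange lists are cell type markers, and bars are list medians. Hepatocyte markers have the highest median, 0.94, and all 9 endothelial probes lie below 0, while stellate cell and myofibroblast medians are -0.01 and -0.02.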

How the data were processed

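Spot intensities (median brightness and local background in each colour) were deposited as extracted by the authors' scanner software, Agilent Feature Extraction 11.5.1.1. Processed intensities and a log10 ratio (red over green) made from them were deposited beside these, per the file headers. A deposited table gives log2 ratios, of which between 89.5% and 93.6% per array lay within 0.001 of the processed log2 ratio. Median signals were corrected with normexp (offset 50) and normalized by loess within each array in limma 3.58.1 (R 4.3.3). Control and outlier spots had weight 0 and were then dropped, and spots of a probe were averaged. The offset pulls ratios of dim probes toward 0. Files name build mm8, so genes carry no coordinates. RefSeq identifiers gave a symbol to 24375 of 41174 probes (GRCm38.p6).

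Mean ratios were tested with limma (intercept, eBayes with trend and robust prior, two-sided, 3 or more values), adjusted over all probes. A call needs an adjusted p below 0.05 and 2-fold. The reference's own spread is left out, and dye effects of a probe do not cancel. Functions were tested on simulated data. Members and lists were chosen with earlier results of these data known. Values were given for called probes, main liver collagens, class and list extremes, and the widest and closest pairs. Other probes past the test, and Serpinh1, Lox, Mmp13, Mmp8, Nid1, Tgfb1, Acta2, Marco, Acan and Comp, were named after their values were seen. The prior of the spread test was chosen likewise.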

Additional observations from a re-analysis of the deposited data

Results flagged for a closer look

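In 35 sets of 5 liver values, a liver far from the other livers was looked for by the gap to its nearest neighbour over the whole range, which chance flags in about 1 of 20 sets. Col4a4 stood apart in liver 3, at a log2 ratio of 0.595 against 0.22 to 0.28 in the other livers. The median of the basement membrane probes stood apart in liver 2, at 0.458 against 0.016 to 0.108. That median is the value of 1 Col4a1 probe, A_52_P518827. In liver 2, 6 of 9 probes lay above 0, while both Col4a2 probes and the tested Col4a3 probe lay below it. The 2 sets flagged among 35 are about what chance flags.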

How the results depend on the processing

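Col6a6 was called higher under every alternative that was run. The Col1a1 call on the low side fell to 0 probes with arrays scaled to each other and with probes of a gene averaged, and ranged from 0 to 1 when 1 liver was left out. Collagen probes above the reference, 9 in the report, ranged from 4 to 11 without 1 liver, and those below, 8 in the report, from 4 to 10. The count below was 5 with eBayes without trend and robust prior, 3 with the brightest probe per gene and 5 with probes averaged per gene. List probes called higher ranged from 1 to 3 without 1 liver, and those called lower rose from 0 to 3 (Msln, Ogn and Bglap) with Agilent's processed signals and to 3 in the deposited ratios. Probes called variable numbered 1 (Col4a1) with median centring and 0 with a prior that was not robust, the latter chosen after seeing the data. The cause of these changes was not tested. No value turned its direction in a call. Of 890 recomputed values of named probes, 766 kept their direction and side of the threshold, 85 lost the test and 14 gained it. The other 25 moved without such a change in the test. Means near 0 could change sign, and that of Col4a1 A_51_P124254 ran from -0.32 to 0.14 when 1 liver was left out. Of 259 recomputed pair differences 14 moved, and of 260 medians 14. Beyond the losses given in the report, Col4a3, Col23a1, Fap, Postn and the Cdh5 probe nearer to 0 lost the test with median centring. Col1a1 A_52_P658611 lost it with processed signals, in the deposited ratios and with eBayes without trend and robust prior. Col6a1, Col4a3, Col4a5 and Reln also lost it with that eBayes. Where both channels had to clear the background on all arrays, Col4a5 and Reln lost it, and with no filter on dim probes Fgb did. The Col6a4 pair lost it with median centring. In the deposited ratios the Col6a4, Col23a1 and second Col1a1 pairs lost it. Of 17 probes past the test, 7 kept it without any 1 liver. The share of calls on the high side over all probes was 78.9%, and 72.1% with median centring. The slide as a block could not be fitted, since each array lay on its own slide. No paired analysis was possible because the samples form 1 group.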
